A study of Homo sapiens with 24 samples.

Results

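Granulocytes, monocytes and macrophages share a set of effector genes that encode granule proteins, S100 alarmins, adhesion and Fc receptors, the phagocyte NADPH oxidase, receptors for microbial products and scavenger receptors. The 42 such genes described here form a list of symbols, and their levels were not part of the rule. Of the 42, 41 were found among the 52994 genes to which the deposited transcript values were summed. MRC1, the macrophage mannose receptor, was not matched and is not analysed here.

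The data are RNA-seq libraries of 2 established human acute myeloid leukaemia (AML) cell lines, ELF-153 and UCSD-AML1, harvested at 96 h and 144 h. At each harvest the groups were DAC-treated ELF-153, untreated ELF-153, DAC-treated UCSD-AML1 and untreated UCSD-AML1, with 3 libraries in each of the 8 groups, 24 in all. DAC is decitabine, a cytidine analogue that is built into DNA and depletes DNA methyltransferases, and it was given at 100 nM on 4 days with new medium each day. Treated and untreated cells alike were kept in RPMI with 20% foetal calf serum, antibiotics and 5 ng/ml GM-CSF, the granulocyte-macrophage colony-stimulating factor. The labels call the 3 libraries of a group technical triplicates, so p-values measure only the spread between these libraries.

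In normal marrow the genes are switched on in order. Primary granule proteases and myeloperoxidase are made in promyelocytes, lactoferrin and other secondary granule proteins in myelocytes, and gelatinase, Fc receptors and the oxidase in later neutrophils and in monocytes. PU.1 and the C/EBP factors bind the promoters of many of them. Scavenger receptors such as stabilin-1 and CD163 mark macrophages.

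Promoters of 33 of the 42 members, from 250 bases before to 50 bases after the start of transcription, were found in the RefSeq table of build GRCh38.p14. The 9 without an entry were MPO, ELANE, LYZ, ITGAX, ITGB2, NCF4, MMP9, MRC1 and CLEC7A. The median number of CpG dinucleotides per promoter was 5 (0 to 33) in the members, against 14 in all 35116 promoters of the table. At most 5 CpG were held by 54.5% of the members' promoters, against 33.7% of all. The letters GAGGAA, the core of a PU.1 site, stood on either strand in 23 of the 33 (69.7%), against 27.9% of all promoters. The letters TTNNGCAA, part of a C/EBP site, stood on either strand in 7 of the 33 (21.2%), against 10.5% of all. Neither motif contains the other, and a match describes letters and not a measured site.

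The promoters below, 5′ to 3′ with CpG in capitals, belong to the 3 members with the largest DAC increases in ELF-153 and to CTSG, which fell in both lines at both harvests. S100A12 lies at chr1:153375572-153375871 on the minus strand and has 1 CpG. STAB1 lies at chr3:52495088-52495387 on the plus strand and has 13. CYBB lies at chrX:37779809-37780108 on the plus strand and has 1, and CTSG lies at chr14:24576201-24576500 on the minus strand and has 3.
S100A12: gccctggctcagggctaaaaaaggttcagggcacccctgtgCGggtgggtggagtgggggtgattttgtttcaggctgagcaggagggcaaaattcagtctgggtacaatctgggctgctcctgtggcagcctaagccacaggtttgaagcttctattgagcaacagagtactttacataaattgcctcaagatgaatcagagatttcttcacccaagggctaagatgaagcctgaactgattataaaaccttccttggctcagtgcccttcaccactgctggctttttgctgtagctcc
STAB1: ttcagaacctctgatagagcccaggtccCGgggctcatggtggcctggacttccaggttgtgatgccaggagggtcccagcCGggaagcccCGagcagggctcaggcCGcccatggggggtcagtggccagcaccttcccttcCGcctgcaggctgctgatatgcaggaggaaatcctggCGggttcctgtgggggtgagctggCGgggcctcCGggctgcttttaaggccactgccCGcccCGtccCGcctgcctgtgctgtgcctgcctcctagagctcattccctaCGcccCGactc
CYBB: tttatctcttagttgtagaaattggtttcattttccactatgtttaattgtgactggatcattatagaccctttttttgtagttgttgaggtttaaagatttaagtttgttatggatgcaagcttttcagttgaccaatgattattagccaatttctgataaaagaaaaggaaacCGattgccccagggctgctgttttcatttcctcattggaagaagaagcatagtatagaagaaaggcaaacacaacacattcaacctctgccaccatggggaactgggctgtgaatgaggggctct
CTSG: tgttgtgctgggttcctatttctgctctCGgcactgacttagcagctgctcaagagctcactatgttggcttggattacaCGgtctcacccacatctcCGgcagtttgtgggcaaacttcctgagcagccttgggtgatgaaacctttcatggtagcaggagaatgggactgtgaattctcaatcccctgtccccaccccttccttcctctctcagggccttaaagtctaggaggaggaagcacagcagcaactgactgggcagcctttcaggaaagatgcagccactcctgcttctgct
GAGGAA was found on one strand or the other in the windows of STAB1, CYBB and CTSG, and TTNNGCAA in that of S100A12. DNA methylation was not analysed here.

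Values below are scaled reads, that is, reads assigned to the transcripts of a gene, divided by 1 size factor per library and summed over the gene. Depth was 13.15 to 28.53 M assigned reads per library (M, mega). Mitochondrial ribosomal RNA took up 37.3 to 49.8% of the reads in DAC-treated ELF-153 libraries at 96 h, against 13.1 to 35% in untreated ones, and 61.7 to 63.8% in DAC-treated UCSD-AML1 libraries, against 49.3 to 51.3%. At 144 h it took up 42.8 to 53.6% in DAC-treated ELF-153, against 16.6 to 38.2% in untreated ELF-153, and 38.7 to 58.4% in DAC-treated UCSD-AML1, against 44.5 to 52.1%. With that share as a covariate, 11 of the 59 DAC effects called among the members lost their call. In ELF-153 at both harvests and in UCSD-AML1 at 96 h, treated and untreated libraries did not overlap in that share. There the share and the treatment cannot be fully told apart, so a lost call does not tell which of them a change follows. Reads were held almost only by transcripts with sequence of their own, since the 55212 transcripts without an exonic base of their own carried 0.283% of the value. Levels are therefore not compared between genes. A level of 0 says little for AIF1, ELANE, NCF4, PRTN3, CD14, TYROBP and CD68, whose transcripts have 36, 108, 118, 230, 238, 266 and 313 such bases in all. For genes outside the list of members such bases are not given here, so a level of 0 does not show that they were not expressed.

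A gene was tested where at least 3 of the 12 libraries of a harvest reached 10 scaled reads, as 23 of the 41 matched members did at each harvest. Of these 23, 5 at 96 h (S100A12, S100A8, NCF1, FCGR1A and TLR2) and 4 at 144 h (S100A12, S100A8, NCF1 and FGR) passed through DAC-treated libraries alone. FGR at 96 h and FCGR1A and TLR2 at 144 h had fewer than 3 untreated libraries at 10 scaled reads. They too needed DAC-treated libraries to pass. The filter chose all of these for being high with DAC, so their difference is a description, and their p-values below support nothing. Fold changes are on the log2(scaled reads + 1) scale and stand with their standard error (SE). An adjusted p is limma's with the Benjamini-Hochberg method over all genes tested, and a gene was called where it was below 0.05. Means are given ± SD over the 3 libraries of a group (n = 3). The 2 harvests were scaled separately and are set side by side without a test.

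With DAC most of the members tested rose in ELF-153, and fewer did in UCSD-AML1. In these bulk libraries fewer cells of a type and less RNA per cell cannot be told apart, and the same holds for increases. In ELF-153 at 96 h, 16 of the 23 members tested rose and 1 fell, where 20.7% of all 17609 genes tested rose and 12.9% fell. At 144 h in the same line 17 rose and 1 fell, where 20.8% of all 17180 genes tested rose and 18.2% fell. In UCSD-AML1 8 members rose and 2 fell at 96 h, where 20.0% of all genes rose and 20.1% fell. At 144 h 9 rose and 5 fell in UCSD-AML1, where 20.1% of all genes rose and 26.8% fell. The median log2 change of the 23 members in ELF-153 was 2.19 at 96 h and 2.24 at 144 h, against 0.17 and 0.11 over all genes tested. In UCSD-AML1 it was 0.97 at 96 h and 0.73 at 144 h, against -0.03 and -0.14 over all genes. Without the members that passed through DAC-treated libraries alone, a count added after seeing the data, 11 of 18 rose and 1 fell in ELF-153 at 96 h and 13 of 19 rose and 1 fell at 144 h, with medians of 1.92 and 2.19. In UCSD-AML1 it left 7 of 18 higher and 2 lower at 96 h and 7 of 19 higher and 5 lower at 144 h, with medians of 0.54 and 0.34. These counts still hold FGR at 96 h and FCGR1A and TLR2 at 144 h, which also needed DAC-treated libraries to pass the filter. The shares and medians over all genes still hold every gene that passed through DAC-treated libraries alone. They also depend on the scaling. Of all calls in UCSD-AML1, 49.8% were higher at 96 h and 42.8% at 144 h, against 60.1% and 57.7% by edgeR with TMM scaling, and TMM moved the median of all genes to 0.10 at 96 h and 0.13 at 144 h.

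MMP9, LYZ, S100A12, FCGR2A and TYROBP rose in both lines at both harvests, and CTSG fell in all of these comparisons. Of the 16783 genes tested at both harvests, 6.34% rose and 5.15% fell in all of them. Within ELF-153, 15 members rose at both harvests, as did 15.3% of all genes. Within UCSD-AML1, 6 members did, as did 14.5% of all genes. The 15 include S100A12, S100A8, NCF1, FCGR1A, TLR2 and FGR, which at 96 h, 144 h or both passed the filter only with DAC-treated libraries. S100A12 is among the 6 as well. These overlaps were not recounted without such members.

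**Figure D1:**
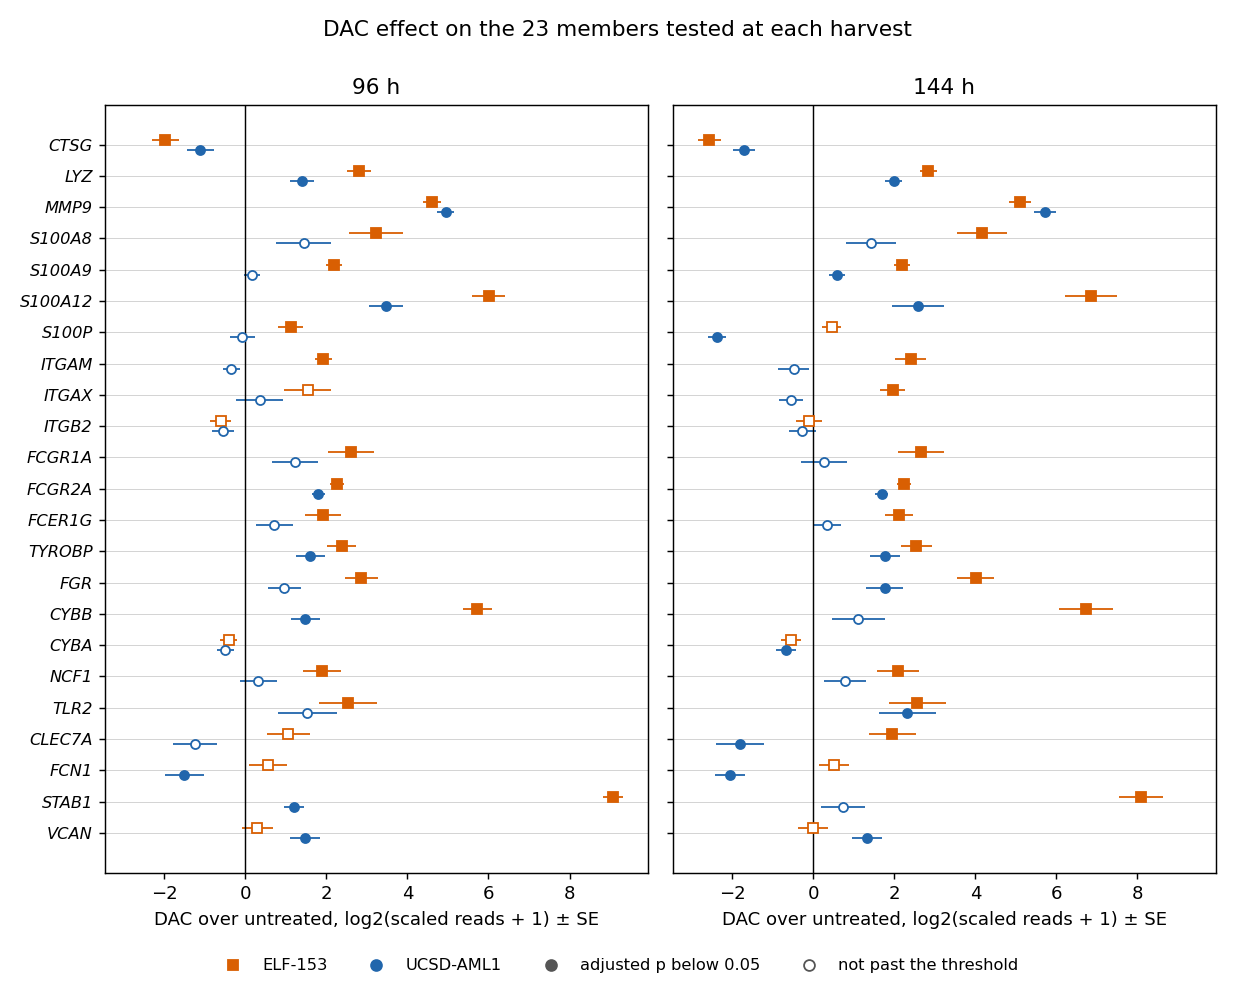
DAC effect on the 23 members tested at 96 h (left) and 144 h (right), as the log2 change of DAC-treated over untreated libraries on the log2(scaled reads + 1) scale. Squares are ELF-153, circles are UCSD-AML1, bars are ± SE, and filled symbols had an adjusted p below 0.05. STAB1, CYBB and S100A12 in ELF-153 lie farthest to the right, and CTSG lies left of 0 in both lines.

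Among the primary granule proteins, the enzymes that define the promyelocyte were hardly detected, whereas lysozyme rose and cathepsin G fell. MPO, which makes hypochlorous acid, had at most 1.13 scaled reads in any of the 24 libraries, although its transcripts have 2215 bases of their own. PRTN3, proteinase 3, had at most 2.52, and ELANE, neutrophil elastase, was at 0 throughout. AZU1, the antimicrobial protein azurocidin, stayed under the filter, with 13.8, 8.99 and 4.86 scaled reads in DAC-treated UCSD-AML1 at 96 h, against 2.1, 0.917 and 0 in untreated UCSD-AML1. The AZU1 groups did not overlap there, and 27 reads against 3 gave a ratio of 10.2 with a 95% counting interval of 3.13 to 52.3. Untreated UCSD-AML1 had 10 AZU1 reads at 144 h, against these 3 at 96 h, so the ratio holds for 96 h only. Such intervals cover counting error only.

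LYZ encodes lysozyme, an enzyme that cleaves bacterial cell walls. It had 1192, 1517 and 1252 scaled reads in DAC-treated ELF-153 at 96 h, against 127, 219 and 239.7 in untreated ELF-153, and 160.3, 291 and 304 in DAC-treated UCSD-AML1, against 116, 94.4 and 67.8 in untreated UCSD-AML1. All treated libraries lay above all untreated ones of their line. The log2 change was 2.80 ± 0.30 in ELF-153 (adjusted p = 7.45e-06) and 1.41 ± 0.30 in UCSD-AML1 (adjusted p = 0.00193). At 144 h LYZ averaged 1599 ± 173 in DAC-treated ELF-153, against 224 ± 37.2, a log2 change of 2.84 ± 0.21 (adjusted p = 3.83e-07). In DAC-treated UCSD-AML1 it averaged 267 ± 45.5, against 66.9 ± 14.5, a change of 1.99 ± 0.21 (adjusted p = 1.14e-05).

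CTSG, cathepsin G, a serine protease of the same granules, moved the other way. It had 21.8, 11.3 and 34.2 scaled reads in DAC-treated ELF-153 at 96 h, against 93, 69.7 and 89.3 in untreated ELF-153. It had 23.6, 30.3 and 24.3 in DAC-treated UCSD-AML1, against 52.4, 66 and 53.6 in untreated UCSD-AML1. Every treated library was lower than every untreated one of its line. At 144 h it had 18.3, 11.9 and 12.1 in DAC-treated ELF-153, against 78.4, 82.9 and 99.3 in untreated ELF-153. It had 16.8, 31.5 and 27 in DAC-treated UCSD-AML1, against 85.8, 76.7 and 82.3 in untreated UCSD-AML1. Again no groups overlapped. In ELF-153 CTSG fell by 1.97 ± 0.34 on the log2 scale at 96 h (adjusted p = 0.000487) and by 2.56 ± 0.28 at 144 h (adjusted p = 1.2e-05). In UCSD-AML1 it fell by 1.11 ± 0.34 at 96 h (adjusted p = 0.0176) and by 1.70 ± 0.28 at 144 h (adjusted p = 0.000355). With the mitochondrial ribosomal RNA share as a covariate both 96 h calls ended, at -1.39 in ELF-153 (adjusted p = 0.0589) and -0.70 in UCSD-AML1 (adjusted p = 0.173). In UCSD-AML1 the 96 h call also ended without DAC-treated replicate 1 (-1.04) or untreated replicate 2 (-1.0). Of the CTSG value, 14.8% lies on coding transcripts.

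Of the secondary and gelatinase granule genes, MMP9 alone passed the filter. LTF (lactoferrin), LCN2 (lipocalin-2, which binds bacterial siderophores), CAMP (cathelicidin) and MMP8 (neutrophil collagenase) had at most 5.88 scaled reads in any library. LCN2 had 0.872 to 1.96 in DAC-treated ELF-153 at 96 h and 1.83 to 3.29 at 144 h, and was at 0 in all untreated ELF-153 libraries. Its 7 reads against 0 at 144 h put it at least 2.38-fold higher, with a floor of 3 reads over the untreated group, which also holds for the bounds below.

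MMP9 is gelatinase B, which degrades collagen and is stored in gelatinase granules. It had 5191, 4525 and 5319 scaled reads in DAC-treated ELF-153 at 96 h, against 298, 158 and 184 in untreated ELF-153, and 1509.8, 1825 and 1504 in DAC-treated UCSD-AML1, against 60.8, 47.7 and 46.5 in untreated UCSD-AML1. At 144 h it had 6424, 7255 and 7889.6 in DAC-treated ELF-153, against 136, 221 and 295, and 2228, 2549.8 and 3937 in DAC-treated UCSD-AML1, against 53.1, 45.1 and 60.8. No treated library came near an untreated one in either line. At 96 h the log2 change was 4.60 ± 0.22 in ELF-153 (adjusted p = 2.76e-09) and 4.94 ± 0.22 in UCSD-AML1 (adjusted p = 7.06e-09). At 144 h it was 5.10 ± 0.27 in ELF-153 (adjusted p = 2.35e-08) and 5.72 ± 0.27 in UCSD-AML1 (adjusted p = 2.46e-08). The change in ELF-153 minus that in UCSD-AML1 was -0.34 ± 0.31 at 96 h (adjusted p = 0.437) and -0.61 ± 0.39 at 144 h (adjusted p = 0.236), neither past the threshold.

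**Figure D2:**
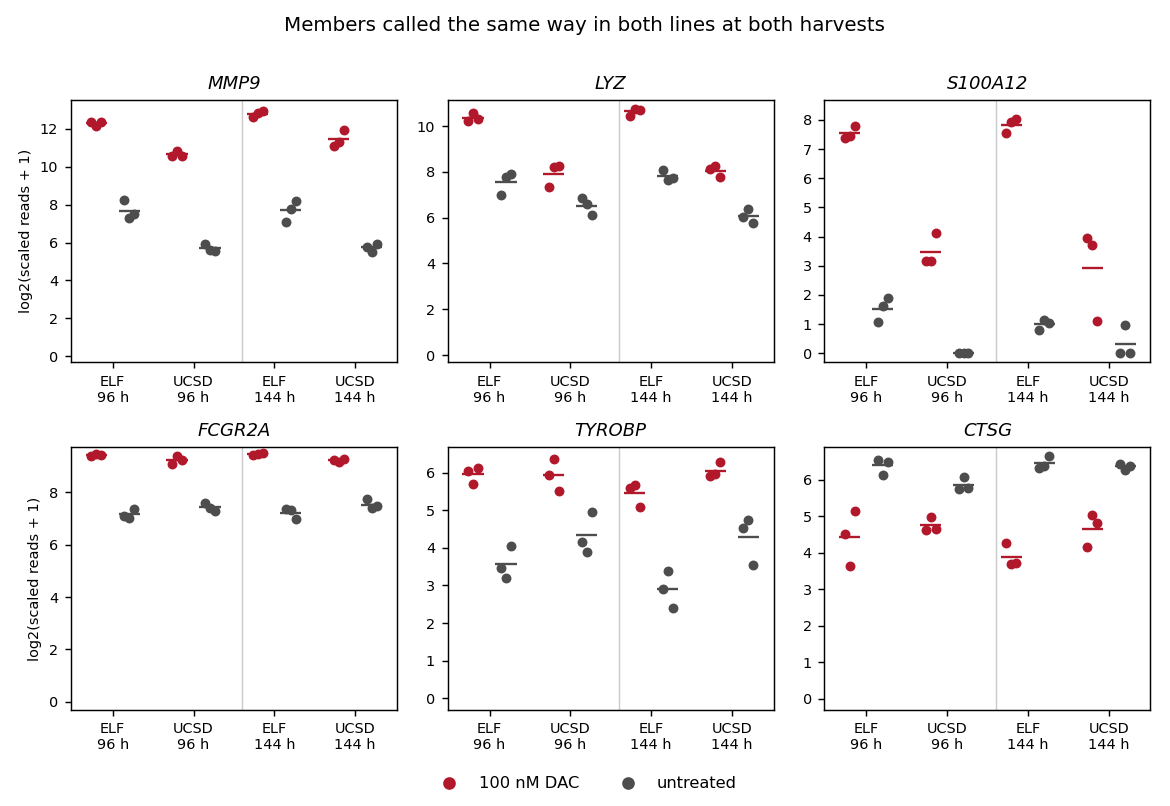
Level of the 6 members called in the same direction in both lines at both harvests, as log2(scaled reads + 1), by line and harvest. Each point is 1 library (3 per group), the horizontal line is their mean, and DAC-treated libraries (red) stand left of untreated ones (grey). MMP9, LYZ, S100A12, FCGR2A and TYROBP are higher with DAC and CTSG is lower.

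All 4 members of the S100 family, calcium-binding proteins that phagocytes release at sites of inflammation, rose in ELF-153 at 96 h. S100A12, calgranulin C, had 165, 172 and 222 scaled reads in DAC-treated ELF-153, against 1.12, 2.05 and 2.73 in untreated ELF-153. In UCSD-AML1 it had 7.87, 7.87 and 16.5 with DAC and was at 0 in the 3 untreated libraries. Without DAC the gene was at or near 0 in both lines, and it passed the filter, like S100A8, through DAC-treated libraries alone. The log2 change in ELF-153 was 6.0 ± 0.41 (adjusted p = 1.1e-07), and in UCSD-AML1 32 reads against 0 put it at least 12-fold higher (adjusted p = 1.94e-05). At 144 h its 708 reads against 3 in ELF-153 gave a ratio of 241 with a counting interval of 82.1 to 1171 (adjusted p = 3.05e-06). In UCSD-AML1 at 144 h it had 14.3, 12.2 and 1.13 with DAC, against 0, 0.959 and 0, a ratio of 29.9 with an interval of 5.0 to 1218 (adjusted p = 0.00553). The treated UCSD-AML1 libraries were uneven there, and replicate 3 was barely above the untreated ones.

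S100A8 and S100A9 encode the subunits of calprotectin, which withholds zinc and manganese from microbes. S100A9 had 9358, 8151 and 9690.0 scaled reads in DAC-treated ELF-153 at 96 h, against 1919.9, 1807 and 2249 in untreated ELF-153. In UCSD-AML1 it had 345, 554 and 339.9 with DAC, against 403, 389 and 296 without. The groups were far apart in ELF-153 and overlapped in UCSD-AML1. The log2 change was 2.19 ± 0.20 in ELF-153 (adjusted p = 2.28e-06) and 0.16 ± 0.20 in UCSD-AML1 (adjusted p = 0.556). At 144 h S100A9 averaged 8138 ± 1529.8 in DAC-treated ELF-153, against 1800.2 ± 419.7, a change of 2.19 ± 0.19 (adjusted p = 1.73e-06). In UCSD-AML1 at 144 h it averaged 559.5 ± 58.7 with DAC, against 369.7 ± 12.7, a change of 0.59 ± 0.19 (adjusted p = 0.023). That UCSD-AML1 call ended without untreated replicate 1 (0.57) or 2 (0.58), or DAC-treated replicate 2 (0.56) or 3 (0.53).

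S100A8 had 19.9, 37.5 and 45 scaled reads in DAC-treated ELF-153 at 96 h, against 2.24, 2.05 and 3.65 in untreated ELF-153, with no overlap and a log2 change of 3.22 ± 0.67 (adjusted p = 0.00223). In the 144 h libraries it had 31.1, 24.8 and 47.2 with DAC, against 0, 1.18 and 2.14 without. Those 104 reads against 3 gave a ratio of 35.4 with an interval of 11.8 to 174 (adjusted p = 0.000155). In UCSD-AML1 S100A8 had at most 7.77 scaled reads and was not called (adjusted p = 0.102 at 96 h and 0.0739 at 144 h). Of its value, 15.3% lies on coding transcripts. With the mitochondrial covariate the ELF-153 change at 96 h was 2.91 (adjusted p = 0.0706) and the call ended.

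S100P, a small calcium-binding protein of the same family, rose in ELF-153 at 96 h and fell in UCSD-AML1 at 144 h. In ELF-153 at 96 h it had 454, 351 and 431 scaled reads with DAC, against 217, 151 and 200.5 without (1.13 ± 0.31, adjusted p = 0.0123). In UCSD-AML1 at 144 h it had 134, 141 and 175 with DAC, against 813, 784 and 742 without. All treated libraries were far below the untreated ones at that time, and S100P fell by 2.38 ± 0.22 on the log2 scale (adjusted p = 4.76e-06). In UCSD-AML1 at 96 h the groups overlapped, at 88.5, 247 and 187 with DAC, against 202, 170.5 and 139.5 without. In ELF-153 at 144 h it averaged 304 ± 36.6 with DAC and 228 ± 67.8 without (0.45 ± 0.22, adjusted p = 0.129).

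The beta-2 integrins mediate adhesion and the uptake of complement-coated particles. ITGAM (CD11b) had 63.5, 64.5 and 55.8 scaled reads in DAC-treated ELF-153 at 96 h, against 19, 12.3 and 15.5 in untreated ELF-153 (log2 change 1.92 ± 0.21, adjusted p = 1.19e-05). It had 145, 125 and 143 in DAC-treated UCSD-AML1, against 176, 156 and 191 in untreated UCSD-AML1. There the treated libraries lay just below the untreated ones, a change of -0.34 ± 0.21 that was not called (adjusted p = 0.226). At 144 h ITGAM averaged 89.9 ± 9.93 in DAC-treated ELF-153, against 18.7 ± 10.5 (2.41 ± 0.38, adjusted p = 0.000262). In UCSD-AML1 it averaged 108 ± 6.11 with DAC, against 152 ± 16.5 (-0.48 ± 0.38, adjusted p = 0.318).

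ITGAX (CD11c) had 112, 128 and 146 scaled reads in DAC-treated ELF-153 at 144 h, against 32.7, 35.5 and 28.8 in untreated ELF-153 (1.96 ± 0.30, adjusted p = 0.000222). At 96 h it had 124, 120.4 and 153 with DAC, against 39.2, 49.2 and 45.6 without. Those groups did not overlap either, but limma's adjusted p was 0.0536 with a change of 1.54 ± 0.58, while edgeR gave 1.51 (adjusted p = 0.00657). In UCSD-AML1 the groups overlapped at both harvests and ITGAX was not called, with changes of 0.36 ± 0.58 and -0.55 ± 0.30. ITGB2, the common beta chain CD18, was called in neither line, with changes of -0.61 ± 0.27 and -0.11 ± 0.33 in ELF-153 and of -0.55 ± 0.27 and -0.26 ± 0.33 in UCSD-AML1 at 96 h and 144 h. ITGAX and ITGB2 have 6.37% and 8.4% of their value on coding transcripts.

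All 5 genes of Fc receptor signalling rose in ELF-153 at both harvests. FCGR1A and FGR needed DAC-treated libraries to pass the filter at both harvests, so their p-values support nothing. FCGR2A (CD32A), a receptor for IgG, had 667, 715 and 681 scaled reads in DAC-treated ELF-153 at 96 h, against 134, 130.1 and 163 in untreated ELF-153. In UCSD-AML1 it had 539, 678 and 597 with DAC, against 192, 169 and 155 without. Treated and untreated libraries did not overlap in either line. The log2 change was 2.27 ± 0.17 in ELF-153 (adjusted p = 2.22e-07) and 1.81 ± 0.17 in UCSD-AML1 (adjusted p = 2.25e-06). At 144 h FCGR2A averaged 705 ± 26.7 in DAC-treated ELF-153, against 149.5 ± 21.3 (2.24 ± 0.17), and 596 ± 28.2 in DAC-treated UCSD-AML1, against 185 ± 23.2 (1.69 ± 0.17). FCGR2A and FCGR1A have near-identical copies in the genome, and how their reads were split is uncertain.

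TYROBP (DAP12), the adaptor of activating receptors on phagocytes and natural killer cells, had 65.4, 50.6 and 68.5 scaled reads in DAC-treated ELF-153 at 96 h, against 10.1, 8.19 and 15.5 in untreated ELF-153 (2.38 ± 0.35, adjusted p = 0.00016). In UCSD-AML1 it had 60, 80.9 and 44.7 with DAC, against 16.8, 13.7 and 30 without (1.60 ± 0.35, adjusted p = 0.00268). Treated libraries were above untreated ones in both lines. At 144 h TYROBP averaged 43.3 ± 9.06 in DAC-treated ELF-153, against 6.76 ± 2.61 (2.55 ± 0.37), and 65.5 ± 9.62 in DAC-treated UCSD-AML1, against 19.6 ± 7.89 (1.77 ± 0.37). On coding transcripts alone, which hold 22% of its value, the 96 h change in UCSD-AML1 was 0.99 and was not called (adjusted p = 0.107).

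FCER1G, the common gamma chain of Fc receptors, had 54, 58.4 and 64.6 scaled reads in DAC-treated ELF-153 at 96 h, against 32.5, 6.15 and 15.5 in untreated ELF-153 (1.92 ± 0.45, adjusted p = 0.005). At the later harvest, 144 h, it averaged 67 ± 5.25 with DAC, against 15.6 ± 6.2 (2.11 ± 0.34, adjusted p = 0.000297). It was not called in UCSD-AML1, where the change was 0.72 ± 0.45 at 96 h and 0.34 ± 0.34 at 144 h. Of the FCER1G value, 16.2% lies on coding transcripts. FCGR1A (CD64), the high-affinity IgG receptor, was low throughout, with 6.98 to 12.3 scaled reads in DAC-treated ELF-153 at 96 h, against 0 to 3.65 in untreated ELF-153 (2.60 ± 0.57, adjusted p = 0.00316). In libraries of 144 h it had 10.1 to 17.4 with DAC, against 0 to 3.55 without (2.65 ± 0.56, adjusted p = 0.00226). Its 96 h call ended with the mitochondrial covariate (2.61, adjusted p = 0.0609), and in UCSD-AML1 its changes of 1.23 ± 0.57 and 0.26 ± 0.56 were not called.

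FGR, a Src-family kinase of phagocytes, had 13.3, 23.5 and 16.6 scaled reads in DAC-treated ELF-153 at 96 h, against 1.12, 1.02 and 2.73 in untreated ELF-153 (2.86 ± 0.40, adjusted p = 0.000103). In the 144 h libraries it had 23.8, 11.9 and 12.1 with DAC and was at 0 in the 3 untreated libraries, so that it was at least 17-fold higher (adjusted p = 1.77e-05). UCSD-AML1 expressed FGR already without DAC. There it had 17.6, 19.2 and 37.2 with DAC at 144 h, against 3.54, 7.67 and 8.35 without (1.76 ± 0.46, adjusted p = 0.0073). At 96 h it had 24.6, 14.6 and 19.4 with DAC, against 8.39, 10.1 and 9.46 without. The 96 h groups did not overlap, but the change of 0.97 ± 0.40 was not called by limma (adjusted p = 0.0713), while edgeR called it (1.21, adjusted p = 0.0358).

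The phagocyte NADPH oxidase makes superoxide with a membrane core of CYBB (gp91phox) and CYBA (p22phox) and cytosolic subunits such as NCF1 (p47phox) and NCF4 (p40phox). CYBB had 464, 1034 and 672 scaled reads in DAC-treated ELF-153 at 96 h, against 21.3, 7.17 and 10.9 in untreated ELF-153, and 449, 487 and 734 in DAC-treated UCSD-AML1, against 234, 179.6 and 174 in untreated UCSD-AML1. At the later harvest, 144 h, it had 685, 1177 and 836 in DAC-treated ELF-153, against 20.3, 11.8 and 1.07, and 276, 273 and 224 in DAC-treated UCSD-AML1, against 172, 138 and 69.2. Treated and untreated groups of a line did not overlap, and the treated ELF-153 libraries overlapped the treated UCSD-AML1 ones at 96 h and lay above them at 144 h. The log2 change in ELF-153 was 5.73 ± 0.35 at 96 h (adjusted p = 4.37e-08) and 6.73 ± 0.66 at 144 h (adjusted p = 6.31e-06). In UCSD-AML1 it was 1.48 ± 0.35 at 96 h (adjusted p = 0.00461). In libraries of 144 h it was 1.11 ± 0.66, which limma did not call (adjusted p = 0.183) and edgeR did (1.34, adjusted p = 0.0172).

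CYBA had 4533, 4294 and 5421 scaled reads in DAC-treated ELF-153 at 144 h, against 4462, 8768 and 8538, and 2441, 2328 and 3507 in DAC-treated UCSD-AML1, against 4000.3, 3971 and 5003. The groups overlapped in ELF-153 and did not in UCSD-AML1, where CYBA fell by 0.67 ± 0.25 on the log2 scale (adjusted p = 0.0421). Leaving out any 1 of the 6 UCSD-AML1 libraries other than DAC-treated replicate 3 ended that call (-0.72 to -0.56), as did edgeR (-0.35, adjusted p = 0.306). The change was not called in ELF-153 at 96 h (-0.41 ± 0.22) or 144 h (-0.55 ± 0.25) or in UCSD-AML1 at 96 h (-0.49 ± 0.22).

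NCF1 rose in ELF-153, with 11.4, 19.2 and 28.4 scaled reads with DAC at 96 h, against 4.48, 3.07 and 5.47 without (1.89 ± 0.46, adjusted p = 0.00635), and 16.5 ± 4.86 with DAC at 144 h, against 3.5 ± 2.66 (2.09 ± 0.52, adjusted p = 0.00645). In UCSD-AML1 it had at most 1.68. NCF1 has near-identical pseudogenes, so its reads are uncertain, and 23.5% of its value lies on coding transcripts. With the mitochondrial covariate it lost its call at both harvests (1.81, adjusted p = 0.121, and 1.43, adjusted p = 0.176). NCF4 stayed under the filter, with at most 10.1 scaled reads.

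Most receptors for chemoattractants and microbial products were at the limit of detection. FPR1 and FPR2, the formyl peptide receptors, had at most 4.77 scaled reads, TLR4, the endotoxin receptor, at most 3.67, and CD14, its co-receptor, at most 11.3. CD14 did not pass the filter and had 7.87, 2.25 and 1.94 in DAC-treated UCSD-AML1 at 96 h, against 0 in all 3 untreated libraries, which by reads (12 against 0) is at least 4.51-fold higher.

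TLR2, the receptor for bacterial lipoproteins, rose in ELF-153 at both harvests and in UCSD-AML1 at 144 h. It had 5.68, 10.5 and 10.8 scaled reads in DAC-treated ELF-153 at 96 h, against 0, 0 and 3.65 (2.53 ± 0.72, adjusted p = 0.0148). In the 144 h libraries it had 2.74, 6.42 and 6.59 in DAC-treated ELF-153 and was at 0 in the 3 untreated libraries, so that it was at least 5.44-fold higher (adjusted p = 0.0119). In UCSD-AML1 at 144 h it had 21, 20.1 and 20.3 with DAC, against 10.6, 5.75 and 0 without (2.33 ± 0.71, adjusted p = 0.0172). None of these groups overlapped, but the levels were low, and with only the 6 libraries of UCSD-AML1 the call in that line ended (2.33, adjusted p = 0.0526). The 96 h call ended without untreated replicate 1 (2.16, adjusted p = 0.0512), and both ELF-153 calls ended with the mitochondrial covariate (1.88, adjusted p = 0.266, and 1.87, adjusted p = 0.178).

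FCN1, ficolin-1, a lectin of monocytes that activates complement, fell in UCSD-AML1. It had 26.6, 32.6 and 21.4 scaled reads in DAC-treated UCSD-AML1 at 96 h, against 102, 85.2 and 52, and 22.7, 21.9 and 21.4 at 144 h, against 94.6, 91.1 and 99. At 144 h the libraries of each group were close together and far from the other group. FCN1 fell by 1.5 ± 0.47 on the log2 scale at 96 h (adjusted p = 0.0218) and by 2.06 ± 0.37 at 144 h (adjusted p = 0.000688). The 96 h call ended without untreated replicate 1 (-1.30) or 2 (-1.43), without DAC-treated replicate 1 (-1.5) or 3 (-1.35), and with the mitochondrial covariate (-0.65, adjusted p = 0.32). In ELF-153 its groups overlapped, at 24.7 ± 9.22 with DAC and 18.7 ± 11.6 without at 96 h, and 21.9 ± 1.04 and 17.4 ± 12 at 144 h.

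CLEC7A, dectin-1, the receptor for fungal beta-glucan, was the one member called in opposite directions in the lines at a harvest, as were 1.55% of all genes at 144 h with a rise in ELF-153 and a fall in UCSD-AML1. It had 21, 20.1 and 6.76 scaled reads in DAC-treated UCSD-AML1 at 144 h, against 70.7, 89.2 and 22.7. The treated libraries lay below the untreated ones, although replicate 3 was low in both groups, and CLEC7A fell by 1.80 ± 0.58 on the log2 scale (adjusted p = 0.0224). The call ended without untreated replicate 1 (-1.59) or 2 (-1.43) or DAC-treated replicate 3 (-1.31). In ELF-153 at 144 h it had 4.57, 4.59 and 2.2 with DAC, against 0.726, 0 and 0, a ratio of 12.2 with an interval of 1.81 to 524 (adjusted p = 0.0179). That call rests on 12 reads against 1 and ended without untreated replicate 2 or 3 or DAC-treated replicate 1 or 2 (1.81 to 1.82), with a pseudocount of 8 (0.51, adjusted p = 0.307) and with the mitochondrial covariate (0.51, adjusted p = 0.624). At 96 h CLEC7A was called in neither line (1.07 ± 0.54 in ELF-153 and -1.25 ± 0.54 in UCSD-AML1). None of its value lies on coding transcripts.

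Among macrophage scavenger and matrix genes, STAB1 showed the largest DAC change of the 23 members tested. STAB1, stabilin-1, a scavenger receptor of macrophages and sinusoidal endothelium, had 1030.5, 716 and 851 scaled reads in DAC-treated ELF-153 at 96 h, against 1.12, 0 and 0.911 in untreated ELF-153. In UCSD-AML1 it had 9164, 9792 and 7927 with DAC, against 3925, 3922 and 3854 without. The gene was near 0 in untreated ELF-153 and high in untreated UCSD-AML1. In ELF-153 the 2779 reads against 2 gave a ratio of 1278 with an interval of 354 to 10560.0 (adjusted p = 1.86e-11), and in UCSD-AML1 the log2 change was 1.19 ± 0.25 (adjusted p = 0.00169). At the later harvest, 144 h, it had 762, 724 and 740.1 in DAC-treated ELF-153, against 1.45, 0 and 7.47 (8.08 ± 0.54, adjusted p = 2.61e-07). In UCSD-AML1 at 144 h it had 5218, 5408 and 7269.7 with DAC, against 3248, 3068 and 4491. That change of 0.73 ± 0.54 was not called by limma (adjusted p = 0.287) and was by edgeR (1.02, adjusted p = 0.0174).

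VCAN, versican, a matrix proteoglycan that monocytes make, had 233, 185 and 222 scaled reads in DAC-treated UCSD-AML1 at 96 h, against 93.3, 61.4 and 77.3 (1.47 ± 0.37, adjusted p = 0.00675), and 60.5, 91 and 85.6 at 144 h, against 34.5, 35.5 and 22.7 (1.33 ± 0.37, adjusted p = 0.0106). Treated and untreated groups did not overlap. In ELF-153 VCAN was at 0 in all libraries but 1, which had 0.872. Of the VCAN value, 42.7% lies on coding transcripts. With the mitochondrial covariate the 96 h change in UCSD-AML1 was 1.23 and its call ended (adjusted p = 0.0581). CD163, the haemoglobin scavenger receptor, CD68, a lysosomal glycoprotein, and AIF1, an actin-binding protein of macrophages, did not pass the filter. CD68 had 13.8, 7.87 and 4.86 scaled reads in DAC-treated UCSD-AML1 at 96 h, against 0, 0 and 1.58, and 26 reads against 2 gave a ratio of 14.7 with an interval of 3.67 to 128. CD163 had at most 5.25, and AIF1 was at 0 in all 24 libraries. Of the inhibitory leukocyte immunoglobulin-like receptors, LILRB4 had at most 0.971 scaled reads, and LILRB1, also under the filter, had 0, 0.872 and 4.89 in DAC-treated ELF-153 at 96 h, against 12.3, 8.19 and 10 in untreated ELF-153.

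The size of the DAC effect differed between the lines for many members. The line difference is the log2 change in ELF-153 minus that in UCSD-AML1, and it uses the same libraries as the comparisons above. It was positive and called for 9 of the 23 members at 96 h, where 17.1% of all genes were called positive and 8.71% negative. In libraries of 144 h it was positive and called for 14, where 19.9% of all genes were called positive and 10.1% negative. The 9 include S100A12 and FGR, and the 14 include S100A12, S100A8, FCGR1A and FGR, all of which needed DAC-treated libraries to pass the filter. The line differences were not recounted without them. Of all calls of a line difference, 66.3% were positive at each harvest, against 51.1% at 96 h and 43.6% at 144 h by edgeR, and TMM moved the median of all genes to 0.00 and -0.11, against 0.19 and 0.21 under the deposited scaling. The number of members called negative by limma was 0 at both harvests, and at each 1 member, VCAN, had a negative difference with an unadjusted p under 0.05. edgeR called 0 members negative at 96 h and 1 at 144 h, CTSG (-1.23, adjusted p = 0.0476).

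The difference was largest for STAB1, at 7.88 ± 0.35 at 96 h (adjusted p = 1.2e-08) and 7.35 ± 0.77 at 144 h (adjusted p = 6.38e-05), sizes that depend on the pseudocount because untreated ELF-153 is near 0. CYBB differed by 4.25 ± 0.50 (adjusted p = 9.09e-05) and 5.62 ± 0.93 (adjusted p = 0.00146). ITGAM differed by 2.26 ± 0.30 (adjusted p = 0.000221) and 2.89 ± 0.54 (adjusted p = 0.00264), and S100A9 by 2.02 ± 0.29 (adjusted p = 0.000353) and 1.59 ± 0.27 (adjusted p = 0.0015). These members kept their call at both harvests in every alternative that was run. At 144 h ITGAX differed by 2.51 ± 0.43 (adjusted p = 0.0015) and S100P by 2.83 ± 0.32 (adjusted p = 7.95e-05). LYZ differed by 1.39 ± 0.42 at 96 h (adjusted p = 0.0271), a call that ended without untreated UCSD-AML1 replicate 1 or 2, DAC-treated UCSD-AML1 replicate 1 or DAC-treated ELF-153 replicate 2 (1.09 to 1.36). S100A12 differed by 2.53 ± 0.58 at 96 h (adjusted p = 0.00749), and since untreated UCSD-AML1 has 0 reads the value rests on the pseudocount, and edgeR gave -0.094 (adjusted p = 0.521).

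**Figure D3:**
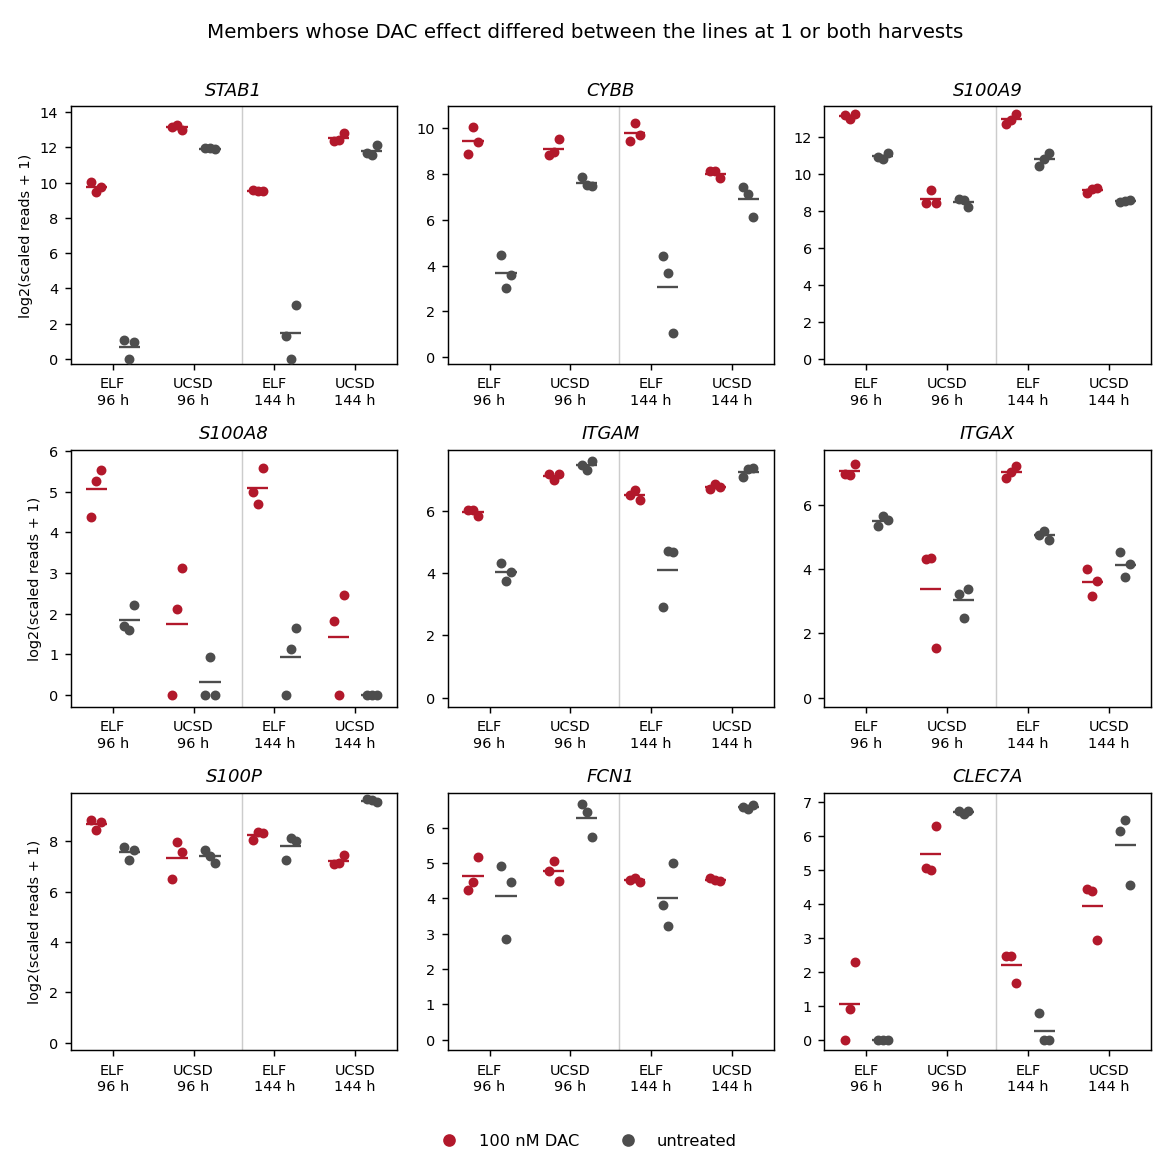
Level of 9 members whose DAC effect differed between the lines at 1 or both harvests, as log2(scaled reads + 1), by line and harvest. Each point is 1 library (3 per group), the horizontal line is their mean, and DAC-treated libraries (red) stand left of untreated ones (grey). STAB1 and CYBB are far higher with DAC in ELF-153, and FCN1 at both harvests and CLEC7A and S100P at 144 h are lower with DAC in UCSD-AML1.

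Without treatment some members were higher in one line and some in the other, at shares partly near those of all genes. In untreated ELF-153 against untreated UCSD-AML1, 8 members were higher and 8 lower at 96 h, where 22.7% of all genes were higher and 35.2% lower. At 144 h 7 were higher and 11 lower, where 28.7% of all genes were higher and 23.1% lower. With the mitochondrial covariate the shares of all genes were 10.6% higher and 14.9% lower at 96 h, and 20.4% and 13.0% at 144 h. Of all calls at 96 h 39.3% were higher in ELF-153, against 52% by edgeR. CYBA, ITGAX, ITGB2, LYZ, MMP9, NCF1 and S100A9 were higher in ELF-153 at both harvests, as were 20.1% of all genes. CLEC7A, CYBB, FCGR1A, FCN1, FGR, ITGAM, STAB1 and VCAN were lower in ELF-153 at both, as were 21.5% of all genes. Leaving out 1 of the 6 untreated libraries ended the call of FCGR1A in 3 cases at each harvest (-1.53 to -1.36 at 96 h and -1.59 to -0.91 at 144 h), that of CYBA at 144 h in 4 (0.52 to 0.64) and that of ITGAX at 144 h in 2 (0.72 to 0.84). With the mitochondrial covariate the sign of the CYBA difference turned (-0.13 at 96 h and -0.22 at 144 h), and on coding transcripts that of ITGB2 at 144 h did (-0.15).

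By reads STAB1 was lower in untreated ELF-153 at 96 h by a ratio of 5779.6 with a counting interval of 1599.6 to 47729 (2 reads against 12911), and its log2 change at 144 h was -10.34 ± 0.54 (adjusted p = 1.42e-08). VCAN was at least 75.8-fold lower at 96 h and at least 33.2-fold lower at 144 h. CLEC7A was at least 103-fold lower at 96 h (0 reads against 345), and at 144 h 1 read against 192 gave a ratio of 201 (interval 35.7 to 7992). The log2 change of ITGAM was -3.41 ± 0.21 at 96 h (adjusted p = 1.46e-08) and -3.15 ± 0.38 at 144 h (adjusted p = 1.79e-05), and that of CYBB was -3.91 ± 0.35 at 96 h (adjusted p = 6.74e-07). S100A9 was higher in untreated ELF-153, by 2.46 ± 0.20 at 96 h (adjusted p = 2.6e-07) and 2.25 ± 0.19 at 144 h (adjusted p = 7.71e-07), and LYZ was higher by 1.74 ± 0.21 at 144 h (adjusted p = 1.81e-05).

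Of 27 other granule and neutrophil genes, 6 of 13 tested rose and 3 fell in ELF-153 at 96 h, and 6 of 14 rose and 3 fell at 144 h, where 20.7% of all genes rose and 12.9% fell at 96 h and 20.8% and 18.2% at 144 h. In UCSD-AML1 4 of 13 rose and 3 fell at 96 h, and 4 of 14 rose and 3 fell at 144 h, where 20.0% of all genes rose and 20.1% fell at 96 h and 20.1% and 26.8% at 144 h. The same shares of all genes apply to the next lists. The counts of this and the next lists were not redone without genes that passed the filter through DAC-treated libraries alone. CEACAM8 and PGLYRP1 at 144 h are such genes, so their rise is a description. SRGN, serglycin, the proteoglycan core of granules, rose by 2.37 ± 0.27 on the log2 scale at 96 h and 2.62 ± 0.21 at 144 h in ELF-153. CEACAM6, an adhesion molecule of granulocytes, averaged 240.0 ± 53.8 scaled reads in DAC-treated ELF-153 at 96 h, against 42.6 ± 9.76, and 49.1 ± 6.91 in DAC-treated UCSD-AML1, against 90.5 ± 2.75. It rose in ELF-153 (adjusted p = 2.84e-06) and fell in UCSD-AML1 (adjusted p = 0.00931).

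PADI4, the enzyme that citrullinates histones in neutrophils, moved the opposite way. It averaged 327 ± 30.5 in DAC-treated ELF-153 at 96 h, against 693 ± 105 (adjusted p = 0.000321), and 2615 ± 341 in DAC-treated UCSD-AML1, against 1070.1 ± 147 (adjusted p = 6.22e-05). In ELF-153 at 144 h CEACAM8 (CD66b), a marker of secondary granules, averaged 15.7 ± 5.04 with DAC and was at 0 without, and PGLYRP1, a peptidoglycan-binding granule protein, averaged 40.8 ± 9.21 with DAC, against 0.395 ± 0.684. In UCSD-AML1 CHI3L1, a chitinase-like protein, rose by 2.50 ± 0.32 at 96 h and 3.08 ± 0.39 at 144 h. BPI, a bactericidal granule protein, averaged 7.31 ± 3.44 in DAC-treated UCSD-AML1 at 96 h, against 0.306 ± 0.529. CXCR2, a receptor for interleukin-8, fell by 3.07 ± 0.44 in UCSD-AML1 at 144 h, and SERPINB1, an elastase inhibitor, fell by 1.18 ± 0.19. DEFA1, DEFA3, ARG1, CD177, FCGR3B and MS4A3 were at 0 in every library.

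Of 52 other monocyte and macrophage genes, 13 of 34 tested rose and 3 fell in ELF-153 at 96 h, and 11 of 32 rose and 2 fell at 144 h, against 20.7% and 12.9% of all genes at 96 h and 20.8% and 18.2% at 144 h. In UCSD-AML1 12 of 34 rose and 8 fell at 96 h, and 10 of 32 rose and 5 fell at 144 h. PLEK, pleckstrin, a protein kinase C substrate of platelets and leukocytes, averaged 33560.1 ± 2518 in DAC-treated ELF-153 at 96 h, against 5302 ± 317, and 60511 ± 9500.1 in DAC-treated UCSD-AML1, against 19732 ± 1975. CCR1, a receptor for inflammatory chemokines, averaged 727 ± 56.4 in DAC-treated ELF-153, against 259 ± 41.6 (adjusted p = 1.83e-05), and 260.0 ± 33.8 in DAC-treated UCSD-AML1, against 643 ± 51.6 (adjusted p = 5.58e-05). PLEK rose in both lines, and CCR1 rose in ELF-153 and fell in UCSD-AML1. ANPEP (CD13), a surface peptidase, rose by 3.12 ± 0.26 in UCSD-AML1 at 96 h, and its change in ELF-153 was 0.047 ± 0.26. CFD, complement factor D, averaged 11.2 ± 1.87 in DAC-treated ELF-153 at 96 h and was at 0 without DAC. CD33, a sialic acid-binding receptor of myeloid cells, fell in ELF-153 by 1.71 ± 0.19 at 144 h. LST1 and C1QB were at 0 in every library.

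Of 20 myeloid transcription factors and growth factor receptors, 16 were tested, and 6 rose and 2 fell in ELF-153 at 96 h and 6 rose and 2 fell at 144 h. In UCSD-AML1 3 rose and 4 fell at 96 h, and 4 rose and 6 fell at 144 h, against 20.0% and 20.1% of all genes at 96 h and 20.1% and 26.8% at 144 h. CEBPE, the factor that drives secondary granule genes, averaged 352 ± 33.3 in DAC-treated ELF-153 at 96 h, against 50.9 ± 9.08 (2.78 ± 0.26, adjusted p = 2.02e-06). In UCSD-AML1 it averaged 17.1 ± 4.53 with DAC, against 39.2 ± 7.78 (-1.16 ± 0.26, adjusted p = 0.00257). CEBPE thus moved in opposite directions in the lines, and it did so at 144 h too (2.05 ± 0.30 and -1.29 ± 0.30). EGR1, an immediate-early factor, rose by 3.11 ± 0.43 at 96 h and 3.36 ± 0.34 at 144 h in ELF-153, and by 2.08 ± 0.34 in UCSD-AML1 at 144 h. ID2, an inhibitor of helix-loop-helix factors, rose by 2.27 ± 0.33 in ELF-153 at 96 h, and IRF4, an interferon regulatory factor, by 3.78 ± 0.60 at 144 h. In UCSD-AML1 RUNX1, a core factor of blood formation, rose by 1.33 ± 0.23 at 96 h and 1.34 ± 0.24 at 144 h, CSF2RB, the beta chain of the GM-CSF receptor, rose by 2.66 ± 0.39 at 144 h, and CEBPD fell by 1.12 ± 0.25 at 96 h.

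Markers of other blood lineages moved with DAC in the same libraries, and their part in the results above was not tested. Of 12 megakaryocyte genes 11 were tested, of which 9 rose in ELF-153 at 96 h and 9 at 144 h, and 11 rose in UCSD-AML1 at 96 h and 10 at 144 h. Their summed level was 12558 to 18952 in DAC-treated ELF-153 at 96 h, against 1003 to 1310.2 in untreated ELF-153, and 146439 to 176537 in DAC-treated UCSD-AML1, against 22769 to 27349.7 in untreated UCSD-AML1, with GP1BB at 0 in every library. Of 11 erythroid genes 6 were tested, and 4 rose in ELF-153 at 96 h and 4 at 144 h. Their sum was 3975 to 6134 in DAC-treated ELF-153 at 96 h, against 364 to 483, and 8969 to 12329 at 144 h, against 430.3 to 528. In UCSD-AML1 5 rose and 1 fell at 96 h (2250.4 to 2649 with DAC, against 650.4 to 670.1), and 4 rose at 144 h (2294 to 3416 with DAC, against 606 to 969). ALAS2, the haem synthesis enzyme of erythroid cells, and CA1, a carbonic anhydrase of red cells, were at 0 in all untreated libraries.

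Of 10 mast cell, basophil and eosinophil genes 5 were tested, and 5 rose in ELF-153 and 3 in UCSD-AML1 at each harvest. Their sum was 1789 to 2019 in DAC-treated ELF-153 at 96 h, against 26.9 to 38.3, and 1595 to 2478 in DAC-treated UCSD-AML1, against 763 to 845, with TPSB2 at 0 in every library. Of 11 T and NK cell genes 6 were tested, and 2 rose in ELF-153 and 4 in UCSD-AML1 at 96 h, with a sum of 456 to 567 in DAC-treated ELF-153, against 200.5 to 246, and 714 to 1078 in DAC-treated UCSD-AML1, against 68.7 to 78. CD8A and KLRD1 were at 0 in every library. Of 9 stem and progenitor genes, 1 of 7 tested rose and 4 fell in ELF-153 at 96 h, and 2 rose and 2 fell in UCSD-AML1. Their sum was 1337 to 2274 in DAC-treated ELF-153, against 2329 to 2812, and 3485 to 3664 in DAC-treated UCSD-AML1, against 6847 to 7464.

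Of the dendritic cell, B cell and stromal lists, 3 to 5 genes each were tested at a harvest. In ELF-153 at 96 h 1 dendritic cell and 1 stromal gene rose and 2 B cell genes fell, and in UCSD-AML1 1 rose and 1 fell in the dendritic cell list, 1 and 2 in the B cell list and 1 and 1 in the stromal list. At 96 h the dendritic cell sum was 19.2 to 35.2 in DAC-treated ELF-153, against 11.8 to 20.5, and 664 to 1152 in DAC-treated UCSD-AML1, against 1764 to 1954. The B and plasma cell sum was 437 to 529 in DAC-treated ELF-153, against 576 to 819, and 186 to 220.3 in DAC-treated UCSD-AML1, against 371 to 405, with MS4A1 (CD20) at 0 in every library. The stromal and epithelial sum was 293 to 338 in DAC-treated ELF-153, against 329 to 361, and 415 to 521 in DAC-treated UCSD-AML1, against 523 to 623, with EPCAM at 0 in every library.

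**Figure D4:**
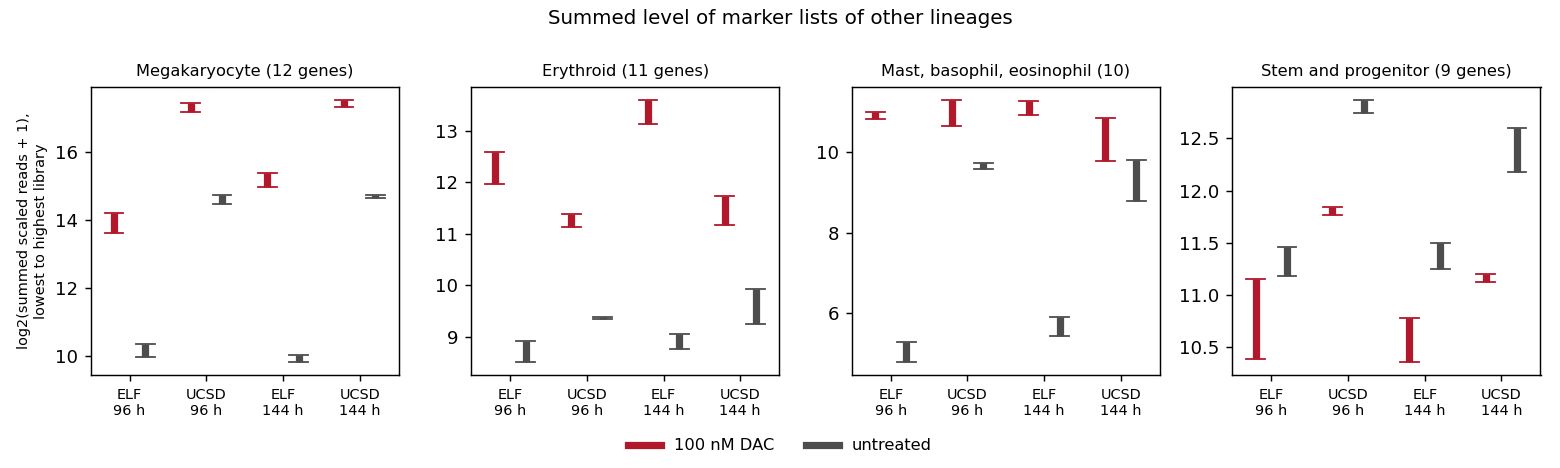
Summed level of 4 marker lists of other lineages, as log2(summed scaled reads + 1), by line and harvest. Each bar spans the lowest to the highest of 3 libraries, with DAC-treated libraries (red) left of untreated ones (grey). The megakaryocyte and erythroid sums are higher with DAC, and the stem and progenitor sums lower, in both lines at both harvests.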

How the data were processed

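RNA-seq was measured in 24 libraries of ELF-153 and UCSD-AML1, as total RNA depleted of ribosomal RNA, in stranded paired-end TruSeq libraries, per the labels' protocols. The build hg19 and the tools HTSeq, STAR, TopHat2, DESeq2 and FastQC stand in the submitters' processing notes, and versions and the counting rule are not given in the sources used here. The deposited signal is, from its values, reads per transcript divided by 1 size factor per library, in a separate table for each harvest. Of the non-zero values 100% were whole multiples of 1 read within a tolerance of 0.01, which gave back the reads (13.15 to 28.53 M reads per library). The number of per-sample columns left unused was 0.

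Of 204940 transcripts, 181859 (88.74%) matched a GENCODE 29 identifier and were summed to 52994 genes, holding 97.78% of the value at 96 h and 97.83% at 144 h. Differences were tested with limma 3.58.1 (R 4.3.3) on log2(gene sum + 1) over the 12 libraries of a harvest, with trended and robust variances, where 3 or more libraries reached 10 scaled reads (17609 at 96 h, 17180 at 144 h). The Benjamini-Hochberg threshold was 0.05, and the procedure was tested on simulated data. edgeR 4.0.16 and DESeq2 1.42.0 on the recovered reads, other scalings, pseudocounts of 0.5 and 8, no filter, 6 libraries of a line, a replicate block, the mitochondrial share as covariate, coding transcripts only and leaving out each library were alternatives. On those reads edgeR called 3354 genes higher and 2599 lower with DAC in ELF-153 at 96 h, 4203 and 2786 in UCSD-AML1 at 96 h, 3364 and 3258 in ELF-153 at 144 h, and 4524 and 3320 in UCSD-AML1 at 144 h. Folds against 0 reads take a floor of 3 reads over the group.

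Replicates differed by more than counting noise (chi-square per degree of freedom 3.809 to 244.9), so none was merged. In UCSD-AML1 at 144 h, the deviations of libraries with the same number correlated at r = 0.133, 0.123 and 0.264 over genes. Untreated replicate 1 with DAC-treated replicate 2 gave 0.0904, and untreated replicate 2 with DAC-treated replicate 1 gave 0.14. Only replicate 3 thus stood apart by number. The replicate block gave the same counts of calls there (9 higher and 5 lower).

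The members, gene lists and tests were chosen with earlier results of these data known. Named were all members, per library for called ones up to the 6 largest changes in each direction of a DAC effect, the 6 members with the smallest adjusted p in each line contrast, and the 3 with the smallest adjusted p in each list of other genes. The marker lists cover erythroid, megakaryocyte, stem and progenitor, mast cell, T and NK cell, B cell, dendritic cell and stromal genes. Promoters come from RefSeq, build GRCh38.p14, and were matched by symbol.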

Additional observations from a re-analysis of the deposited data

Results flagged for a closer look

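The DAC effect of 14 members differed between ELF-153 and UCSD-AML1 at 1 or both harvests, tested by limma as a line difference over all genes, and values are the log2 change in ELF-153 minus that in UCSD-AML1. At 96 h the line difference was 7.88 for STAB1, 4.25 for CYBB, 2.53 for S100A12, 2.31 for CLEC7A, 2.26 for ITGAM, 2.06 for FCN1, 2.02 for S100A9, 1.89 for FGR and 1.39 for LYZ. At 144 h it was 7.35 for STAB1, 5.62 for CYBB, 4.26 for S100A12, 3.75 for CLEC7A, 2.89 for ITGAM, 2.83 for S100P, 2.74 for S100A8 and 2.57 for FCN1. It was 2.51 for ITGAX, 2.39 for FCGR1A, 2.25 for FGR, 1.77 for FCER1G, 1.59 for S100A9 and 0.849 for LYZ at that harvest. S100A12 and FGR at both harvests and S100A8 and FCGR1A at 144 h passed the filter only with DAC-treated libraries, so their values are a description.

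The calls of STAB1, CYBB, ITGAM and S100A9 at both harvests and of FCN1, ITGAX and S100P at 144 h, 11 of the 23, held in every alternative that was run. Leaving out 1 of the 12 libraries of a harvest ended the LYZ call in 4 cases at 96 h and 9 at 144 h, and the CLEC7A call at 96 h in 10. It ended the FCN1 call at 96 h in 7 cases, the FGR call in 4 at 96 h and 2 at 144 h, the FCGR1A call at 144 h in 9 and the S100A8 call at 144 h in 8. The S100A12 difference at 96 h was -0.094 by edgeR (adjusted p = 0.521), since untreated UCSD-AML1 had 0 reads, and its size rests on the pseudocount.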

How the results depend on the processing

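Of 116 calls over members and comparisons, 73 kept their direction and call in every alternative run for them and 43 lost the call in at least 1. Only 94 of the 116 could be fitted on coding transcripts, and the others were not put to that alternative. The mitochondrial covariate ended 25 calls and turned 2 signs, edgeR ended 10, DESeq2, TMM in limma, no filter and a pseudocount of 8 ended 7 each, and a pseudocount of 0.5 ended 3. Coding transcripts alone ended 5 of 94, and 6 libraries of a line ended 1 of 59. Leaving out a library ended 92 of 834. The cause was not tested. Signs turned for the S100A12 line difference at 96 h by edgeR (-0.094, adjusted p = 0.521), for CYBA in untreated ELF-153 against untreated UCSD-AML1 with the covariate (-0.13 at 96 h, adjusted p = 0.732 by limma, and -0.22 at 144 h, adjusted p = 0.322), and for ITGB2 in that contrast at 144 h on coding transcripts (-0.15, adjusted p = 0.828).

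Counts that moved by over 1.5 times at 96 h were as follows, where the fit on coding transcripts tested 17 members at 96 h and 18 at 144 h, against 23. Members lower with DAC in UCSD-AML1 numbered 4 with 6 libraries of the line, 0 with the covariate and 1 on coding transcripts, against 2. Members lower with DAC in ELF-153 numbered 2 with no filter, 0 with the covariate and 0 on coding transcripts, against 1. A positive line difference was called for 5 members by edgeR, against 9, and a negative one for 1 with a pseudocount of 8, against 0. Members higher in untreated ELF-153 numbered 3 with the covariate and 5 on coding transcripts, against 8. At 144 h they numbered 4 and 4, against 7. At 144 h a negative line difference was called for 1 by edgeR, 2 by TMM in limma, 1 with a pseudocount of 8 and 1 on coding transcripts, against 0, and a positive one for 9 on coding transcripts, against 14.

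Leaving out each library in turn gave 15 to 17 members higher and 1 lower with DAC in ELF-153 at 96 h, and 16 to 17 higher and 1 to 2 lower at 144 h. In UCSD-AML1 it gave 8 to 9 higher and 0 to 3 lower at 96 h, and 8 to 9 higher and 3 to 4 lower at 144 h. The line difference was positive for 5 to 9 members and negative for 0 at 96 h, and positive for 10 to 14 and negative for 0 to 1 at 144 h. Members higher in untreated ELF-153 numbered 8 at 96 h and 5 to 7 at 144 h, and lower ones 7 to 10 and 9 to 11.

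With the replicate number as a block no call was lost and 2 members were lower with DAC in ELF-153 at each harvest, against 1, the added one being CYBA (-0.41, adjusted p = 0.0455 by limma at 96 h, and -0.55, adjusted p = 0.0478 at 144 h). CYBA was also lower in UCSD-AML1 at 96 h under the block (-0.49, adjusted p = 0.0186). Same-numbered libraries correlated at -0.0693, 0.00641 and -0.0494 in UCSD-AML1 at 96 h and at -0.241, -0.316 and 0.161 in ELF-153 at 144 h. In ELF-153 at 96 h they correlated at 0.301, 0.327 and -0.0373, and replicates 1 and 2 at -0.331 and -0.302 across numbers. Whether same-numbered libraries belong together is not known, so the block is an alternative only.

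Depth limits the members under the filter, where a few reads per group decide a ratio. Reads without molecular identifiers are not independent molecules.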
